A study of Rattus norvegicus with 9 samples.

Results

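Genes of the phagocyte NADPH oxidase, 5 in number, were followed across 3 groups of rat liver cells: Cybb, Cyba, Ncf1, Ncf4 and Rac2. They were listed by name for their place in the complex, with earlier results of these data known. All 5 of the 5 were among the 14497 genes measured, each by 1 row of the value table. The arrays (Affymetrix Rat ST 1.0) held RNA of F344 rat liver, 3 arrays a group. Hepatocytes of adult rats aged 5 to 6 weeks, freed by a 2-step collagenase perfusion, made up the adult group. The fetal groups were liver cells of embryonic day 19, digested with collagenase and sorted with magnetic beads by monoclonal antibodies to leucine aminopeptidase (LAP), a hepatic surface antigen, and OC.2, a ductal one. One fetal group is named LAP+/OC.2+ and the other LAP+/OC.2-, here OC.2+ and OC.2- cells. The isolation label describes one double positive program for both, and a short label of the OC.2+ samples reads LAP-OC2+, so the split rests on the titles. No genotype or treatment beyond strain, age and sorting is named. Each group's arrays are named biological replicates, and no label used here says whether animals were pooled.

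The phagocyte oxidase moves electrons from NADPH inside the cell across a membrane to oxygen, making the superoxide with which neutrophils and macrophages kill microbes. Its membrane part, cytochrome b558, pairs the catalytic chain gp91phox (Cybb) with p22phox (Cyba). On activation cytosolic subunits, among them p47phox (Ncf1) and p40phox (Ncf4), and the small GTPase Rac2 join it. Hepatocytes are not known for this complex; in liver it is best known from Kupffer cells, the resident macrophages, and from recruited neutrophils.

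The promoters of both cytochrome chains are shown because these chains form one complex and their RNAs were both higher in OC.2+ cells. Windows of 250 bases before the start site came from a RefSeq table (GRCr8), in which 3 of the 5 genes were matched (Cybb, Cyba and Ncf1). They were searched on both strands for GAGGAA, found in many sites of ETS factors such as PU.1, for CCAAT and for TATAAA. Matches are in capitals. Other forms of ETS sites were not searched for. The Cybb window lies at chrX:16065066-16065315 and the Cyba window at chr19:67404215-67404464, both on the minus strand and both written 5′ to 3′ toward the gene.
Cybb: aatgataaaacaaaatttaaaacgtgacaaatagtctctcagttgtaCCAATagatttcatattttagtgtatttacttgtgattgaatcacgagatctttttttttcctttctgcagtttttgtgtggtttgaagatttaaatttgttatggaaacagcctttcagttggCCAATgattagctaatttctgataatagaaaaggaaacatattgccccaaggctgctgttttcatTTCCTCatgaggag
Cyba: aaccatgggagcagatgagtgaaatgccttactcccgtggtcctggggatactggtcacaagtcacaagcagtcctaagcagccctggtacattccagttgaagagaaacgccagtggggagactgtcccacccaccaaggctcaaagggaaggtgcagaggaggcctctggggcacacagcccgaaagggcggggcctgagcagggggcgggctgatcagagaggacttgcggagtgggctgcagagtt
The Cybb window held GAGGAA once, on the opposite strand (read as TTCCTC), with its first base at position -14 from the start, and CCAAT at -203 and -79. The Cyba and Ncf1 windows held none of the 3 motifs. The Ncf1 window, at chr12:28121635-28121884, reaches into the annotated gene, which starts at 28121816. Not all of that window therefore lies before the gene. Of all 27457 windows of this length, 23.2% held GAGGAA, 34.3% CCAAT and 13.1% TATAAA on either strand. The windows also differed in base composition: 32% of bases were G or C for Cybb, 59.6% for Cyba and 58.4% for Ncf1, beside a median of 52% over all windows.

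The intensities of the deposited table are linear and of unstated centring, with medians of 79.5 to 81.0 on the adult and 86.5 to 89.7 on the fetal arrays. No detection call was used, so the 53 olfactory receptor genes with a single-gene row, taken as silent in liver, served as a reference for dim signal. Their 95th percentile, called the silent-gene limit below, was 7.10 to 7.23 in log2 intensity on adult, 7.26 to 7.36 on OC.2- and 7.47 to 7.74 on OC.2+ arrays. Probe sets differ in brightness, so this limit is a guide and not a detection threshold. Labels were checked against 12 hepatocyte markers, whose summed intensity was 82865 to 91006 on adult, 76367 to 82696 on OC.2- and 33678 to 36679 on OC.2+ arrays. Under the silent-gene limit on all 3 OC.2+ arrays lay 3 of the 12, the transcription factor Hnf4a and the adult enzymes Cyp2c11 and Tat, while albumin (Alb, mean log2 13.79) and alpha-fetoprotein (Afp, 12.80) were bright there. Of 8 ductal markers 7 lay under the limit in OC.2+, 6 in OC.2- and 7 in adult cells, with Krt19, Krt7 and Epcam in each group. The fetal groups are called here by their sort.

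Cybb, the catalytic chain, was brightest in OC.2+ cells, at 1586, 1690 and 1481 on the 3 arrays. In OC.2- cells its intensity was 291.9, 234.0 and 217.2, and in adult hepatocytes 111.2, 116.3 and 102.9. The 3 groups did not overlap, and the adult values lay under the silent-gene limit on all 3 arrays. Cybb was 6.44-fold (95% interval 5.48 to 7.58) higher in OC.2+ than OC.2- cells, limma adjusted p = 7.13e-10. Only 0.276% of all genes had a log2 difference at least as high.

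Cyba, the partner chain, which also serves other NADPH oxidases and is made in many cell types, followed the same order over a narrower range. Its intensity was 402.5, 439.9 and 395.5 in OC.2+ cells and 228.2, 212.6 and 194.8 in OC.2- cells. Adult hepatocytes gave 140.2, 142.1 and 146.9, close to the silent-gene limit, and again no groups overlapped. Cyba was 1.95-fold (95% interval 1.72 to 2.21) higher in OC.2+ than OC.2- cells, limma adjusted p = 6.59e-07.

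Ncf1, the organiser subunit p47phox whose phosphorylation starts assembly, separated the OC.2+ arrays from the other 6. Its intensity was 196.7, 224.3 and 190.4 in OC.2+ cells. It was 61.3, 58.7 and 74.7 in OC.2- cells and 53.1, 64.0 and 54.4 in adult hepatocytes, so these groups overlapped. Ncf1 was 3.15-fold (95% interval 2.67 to 3.72) higher in OC.2+ than OC.2- cells, limma adjusted p = 6.7e-08. It passed the silent-gene limit on the OC.2+ arrays alone, and there by little.

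Ncf4 encodes p40phox, the subunit that binds a phagosomal lipid. Its intensity was 141.4, 136.5 and 134.5 in OC.2+ cells, 70.1, 67.7 and 77.8 in OC.2- cells, and 62.9, 73.1 and 55.1 in adult hepatocytes. The OC.2+ arrays stood above the other 6, and the OC.2- and adult arrays overlapped. The gene was 1.92-fold (95% interval 1.64 to 2.23) higher in OC.2+ than OC.2- cells, limma adjusted p = 6.4e-06. Ncf4 stayed under the silent-gene limit on all 9 arrays, where folds can be understated.

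Rac2, the Rac GTPase of blood cells that switches the assembled oxidase on, had the widest range. Its intensity was 2149, 1993 and 1792 in OC.2+ cells, 304.6, 265.2 and 246.1 in OC.2- cells, and 114.4, 110.4 and 109.6 in adult hepatocytes. No groups overlapped. Rac2 was 7.28-fold (95% interval 6.30 to 8.41) higher in OC.2+ than OC.2- cells, limma adjusted p = 1.89e-10. Its relative Rac1, which nearly all cells make, measured 1193 to 1368 in OC.2+, 1271 to 1328 in OC.2- and 1388 to 1493 in adult cells. Rac1 differed by -0.03 ± 0.08 (SE) on the log2 scale between the fetal groups, a fold of 0.976 (95% interval 0.868 to 1.10), limma adjusted p = 0.789. Against adult hepatocytes Rac1 in OC.2+ cells differed by -0.19 ± 0.08 (limma adjusted p = 0.0528), and after median centring by -0.33 (0.0045) and after cyclic loess by -0.40 (0.000368), both past the threshold. Quantile normalization turned its sign, to 0.10 (0.308), so no direction is given for Rac1 there.

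**Figure D1:**
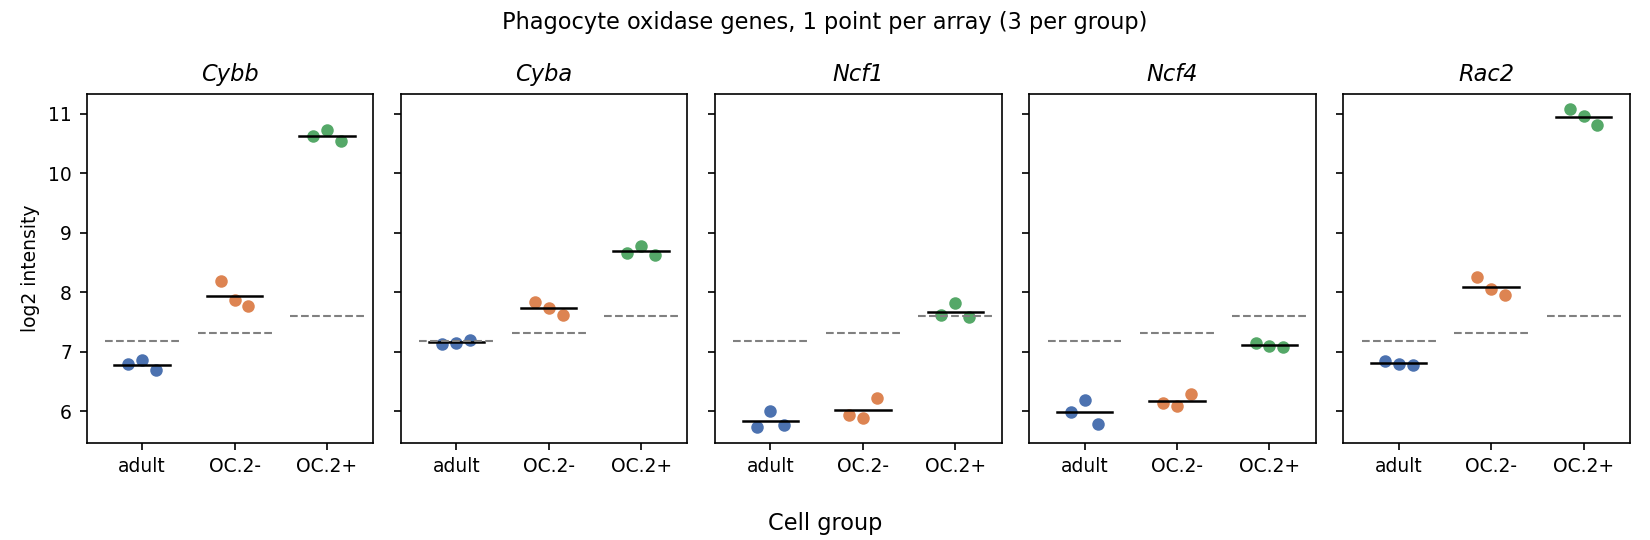
Log2 intensity of the 5 oxidase genes (vertical axis) on each array by cell group (horizontal axis, 3 arrays a group). Solid lines are group means and dashed lines the mean silent-gene limit of the group, the 95th percentile of 53 olfactory receptor genes. The OC.2+ arrays are highest for every gene, and Ncf4 stays under the dashed lines in all groups.

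In all, 5 of the 5 genes were called higher in OC.2+ than OC.2- cells (limma, adjusted p under 0.05), with a median log2 difference of 1.66. Of all genes 20.3% were called higher and 18.2% lower in that comparison, and the median over all genes was 0.04. For 5 of the 5, all 3 OC.2+ arrays lay above all 3 OC.2- arrays, as they did for 25.8% of all genes. The sizes differed between genes. Ncf4 lay under the silent-gene limit in both fetal groups and Ncf1 in OC.2- cells, so their folds can be understated. Rac2 and Cybb differed most, at 2.86 ± 0.10 and 2.69 ± 0.11 (SE) in log2, Ncf1 lay between at 1.66 ± 0.11, and Cyba and Ncf4 were lowest at 0.96 ± 0.08 and 0.94 ± 0.10.

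To compare these sizes, the log2 difference of a pair of genes was taken within each array and set between groups. The fold of Cybb exceeded that of its partner Cyba 3.31 times (1.72 ± 0.07 in log2) in OC.2+ relative to OC.2- cells. For Cybb and Rac2 the log2 differences were 0.18 ± 0.07 apart, and for Cyba and Ncf4 they were 0.03 ± 0.13 apart. Pairs with Ncf1 or Ncf4 set folds that can be understated beside those of brighter genes. The arrays of both groups did not overlap for 9 of the 10 pairs, all but Cyba with Ncf4. The share over pairs of other genes was not computed, so this count is not read as particular to the oxidase genes. Each of these 9 pairs had p = 0.10 in a 2-sided exact permutation test, the smallest that 3 against 3 arrays allow, and 0.111 adjusted over the 10 pairs, so none could pass 0.05.

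Against adult hepatocytes the OC.2- cells held more RNA of the membrane chains and of Rac2 but showed no called difference in the cytosolic phox subunits. Rac2 was 2.43-fold (95% interval 2.10 to 2.81) higher, limma adjusted p = 1.88e-07. Cybb was 2.23-fold (95% interval 1.90 to 2.63) higher, limma adjusted p = 1.56e-06. Cyba was 1.48-fold (95% interval 1.31 to 1.67) higher, limma adjusted p = 8.98e-05. Ncf1 differed by 0.18 ± 0.11 (SE) in log2, limma adjusted p = 0.207, and Ncf4 by 0.18 ± 0.10, limma adjusted p = 0.17. The 95% intervals of these folds were 0.959 to 1.34 for Ncf1 and 0.973 to 1.32 for Ncf4, which span both no difference and a small rise. Both genes lay under the silent-gene limit on all arrays of both groups, so a difference in their RNA can be missed or understated. The contrast with Cybb, Cyba and Rac2 is therefore not read as one between membrane and cytosolic subunits. Without adult replicate 2, the adult array highest in Ncf4, Ncf4 passed the threshold at 0.28 (limma adjusted p = 0.031).

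Thus 3 of the 5 genes were called higher in OC.2- cells than in adult hepatocytes, beside 23.7% of all genes (20.9% were called lower), with a median log2 difference of 0.56 beside 0.07 over all genes. The arrays of both groups did not overlap for the same 3 genes, as for 28.2% of all genes, higher in OC.2- cells. Of all called genes 53.1% were higher on the deposited values, 34.6% after median centring and 42.5% after cyclic loess, while Rac2, Cybb and Cyba kept their calls under both scalings. Within arrays, 6 of the 10 pairs of oxidase genes did not overlap between these groups. They were Cybb and Rac2 each paired with Cyba, Ncf1 and Ncf4 (exact permutation p = 0.10 each, 0.167 adjusted over the 10 pairs). Here too the share over pairs of other genes was not computed.

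In OC.2+ cells against adult hepatocytes the differences were the widest. Rac2 was 17.7-fold (95% interval 15.3 to 20.4) higher and Cybb 14.4-fold (95% interval 12.2 to 16.9) higher. Both lay under the silent-gene limit on all adult arrays, as did Ncf1 and Ncf4, so these folds, and those of OC.2- cells against adult hepatocytes, can be understated. Ncf1 was 3.57-fold, Cyba 2.88-fold and Ncf4 2.17-fold higher, with limma adjusted p from 9.89e-13 for Rac2 to 6.25e-07 for Ncf4. These 5 calls stand beside 32.0% of all genes called higher and 23.4% lower. The arrays did not overlap for any of the 5, as for 37.2% of all genes, higher in OC.2+ cells. Of all called genes 57.8% were higher on the deposited values, 42.5% after median centring and 42.2% after cyclic loess. The comparisons share groups, so their values are set side by side and not counted as separate support.

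**Figure D2:**
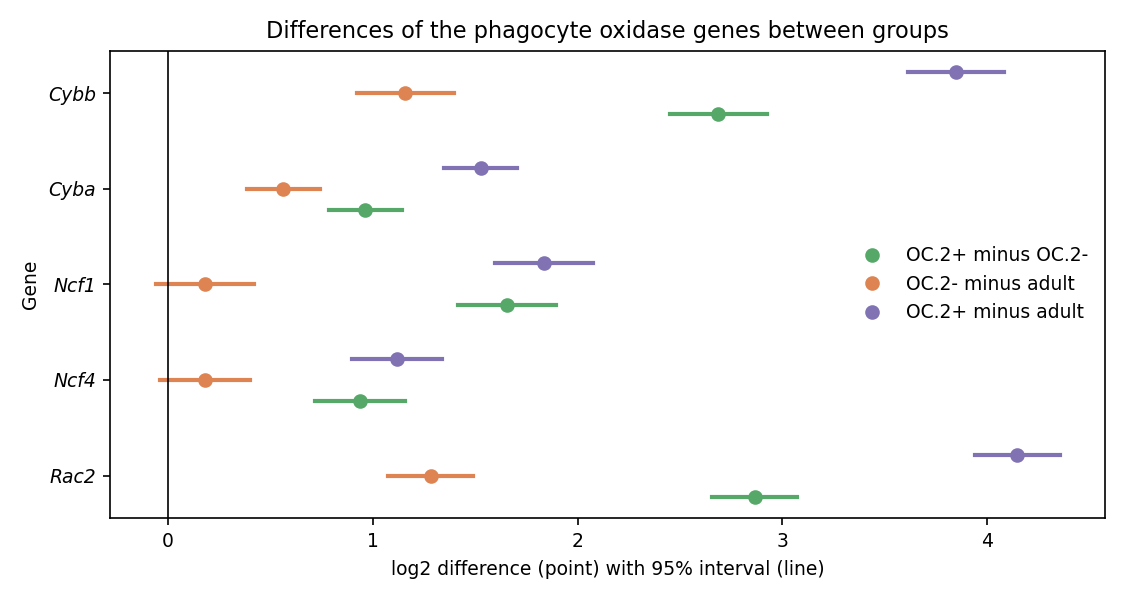
Log2 difference of each oxidase gene (point) with its 95% interval from limma (line) in the 3 comparisons, 3 arrays a group. Rac2 and Cybb differ most in each comparison, and the intervals of Ncf1 and Ncf4 for OC.2- cells minus adult hepatocytes span 0.

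The spread between replicates was not alike for all 5 genes. The SD of log2 intensity in OC.2- cells was 0.222 for Cybb, 0.156 for Rac2 and 0.114 for Cyba, beside a median of 0.108 over all genes. The same genes had SDs of 0.089, 0.033 and 0.035 in adult and 0.095, 0.132 and 0.082 in OC.2+ cells. Ncf4 ran the other way, with SDs of 0.204 in adult, 0.105 in OC.2- and 0.037 in OC.2+ cells. For Cybb, Rac2 and Cyba, OC.2- replicate 1 was the highest of its group. That array also had the highest mean log2 intensity of the group for 18 macrophage markers (7.82, against 7.62 and 7.57 on replicates 2 and 3) and 9 sinusoidal endothelial markers (8.88, against 8.46 and 8.59). The same held for stellate markers (8.28, against 8.08 and 8.05) and, by little, for neutrophil (6.18, against 6.08 and 6.17) and monocyte markers. It held for every other pathway list described below, so it was not particular to macrophage or endothelial markers. Erythroid, megakaryocyte, lymphocyte, eosinophil, ductal and hepatocyte markers were not highest on that array. Ncf1 and Ncf4 were highest on OC.2- replicate 3. Whether cell makeup sets this order was not tested.

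Likeness of profile was measured over the 9 arrays. The nearest gene to a member was the one whose mean-centred log2 profile had the smallest Euclidean distance, with Pearson's r as a description over arrays that share groups. Cybb and Rac2 were each other's nearest of all genes (distance 0.426, r = 0.999). Cd53, a leukocyte tetraspanin, was among the 3 nearest of both, at 0.493 from Cybb (r = 0.995) and 0.629 from Rac2 (r = 0.994). Laptm5, a lysosomal protein of blood cells, followed for Cybb (0.592, r = 0.993), and the secreted phospholipase Pla2g2a was second for Rac2 (0.625, r = 0.996).

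The nearest genes to Cyba were Sp140, a nuclear body protein of leukocytes (distance 0.082, r = 0.999), the cholesterol esterifying enzyme Soat1 (0.154, r = 0.997) and the splicing factor Srrm1 (0.189, r = 0.996). Ncf1 was nearest to the phosphatases Ptpn18 (0.292, r = 0.993) and Ptpn7 (0.323, r = 0.992) and the formin Fmnl1 (0.350, r = 0.990). Ncf4 was nearest to the chemokine receptor Cxcr4 (0.230, r = 0.989), the granule secretion factor Unc13d (0.255, r = 0.987) and the iron transporter Slc11a2 (0.266, r = 0.985). Between members r ran from 0.937 to 0.999 over 10 pairs.

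The other NADPH oxidases did not rise between the fetal groups as Cybb did. Nox4, an oxidase that makes hydrogen peroxide with p22phox and without the cytosolic subunits, was bright in adult hepatocytes, at 455.4, 299.5 and 451.8. It read 49.2, 46.0 and 49.7 in OC.2- cells and 49.4, 47.2 and 50.8 in OC.2+ cells, all under the silent-gene limit. Nox4 was 8.18-fold (95% interval 6.68 to 10.03) lower in OC.2- cells and 8.05-fold (95% interval 6.57 to 9.86) lower in OC.2+ cells than in adult hepatocytes, limma adjusted p = 1.34e-09 and 4.6e-10. Between the fetal groups it differed by 0.02 ± 0.13 (SE) in log2, limma adjusted p = 0.923. These folds can be understated, since the fetal signal was dim.

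Of the 8 measured genes of that family (Nox1, Nox3, Nox4, Noxa1, Noxo1, Duox1, Duox2 and Duoxa1), 0 were called higher and 1 lower in OC.2+ than OC.2- cells. The latter was Duoxa1, a maturation factor of the dual oxidases, 1.25-fold lower (limma adjusted p = 0.0288). This call ended without OC.2- replicate 1 (limma adjusted p = 0.139) and without any 1 of the OC.2+ replicates (0.057 to 0.101). Duoxa1 was also 1.35-fold higher in OC.2- cells than in adult hepatocytes (limma adjusted p = 0.00502). Nox1, of the colon, was 1.19-fold higher in OC.2+ cells than in adult hepatocytes (limma adjusted p = 0.00824), a call that all 3 other scalings ended (0.19 to 0.227). The median of the 8 log2 differences was 0.06 for OC.2+ minus OC.2- cells, beside 0.04 over all genes. Nox1 read 40.9 on each OC.2- array, and 41.3% of all genes, though no oxidase member, gave one value on at least 2 arrays, so the spread of dim genes can be underestimated.

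**Figure D3:**
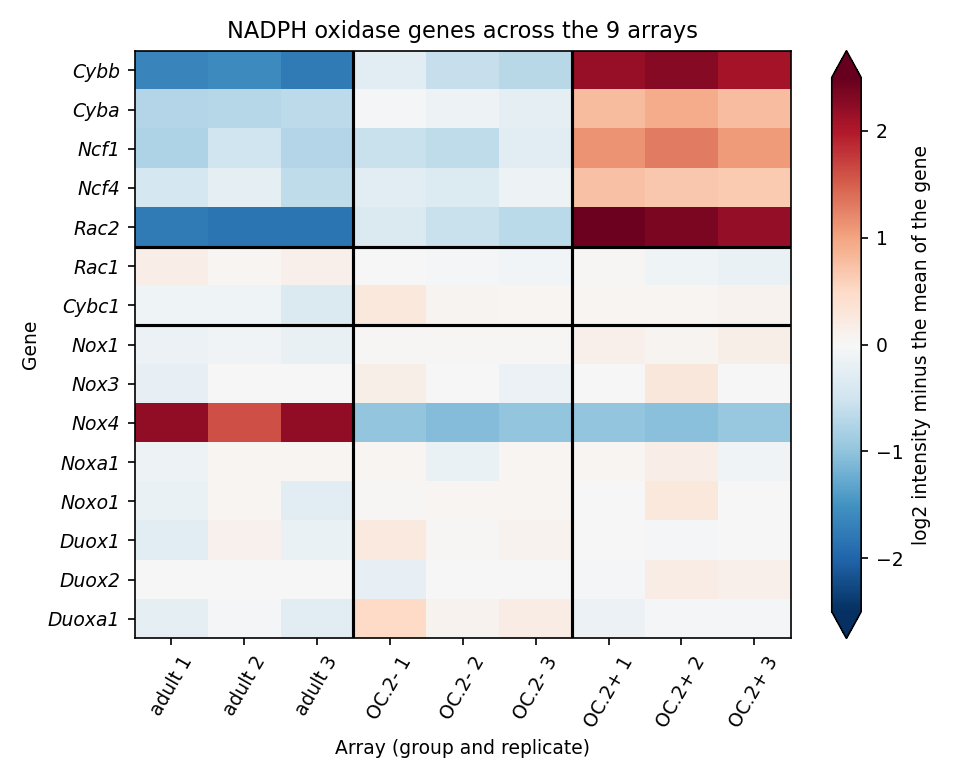
Log2 intensity minus the mean of each gene (colour) on the 9 arrays (columns, by group and replicate) for the 5 oxidase members (top block), Rac1 and Cybc1 (middle block) and the other NADPH oxidase genes (bottom block). The members are highest in the OC.2+ columns and Nox4 in the adult columns, while Rac1 stays near its mean.

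Assembly of the complex needs further proteins, of which 30 of 37 listed genes were measured. Between the fetal groups, 24 of the 30 rose and 3 fell in OC.2+ cells, with a median log2 difference of 0.79. S100a9 and S100a8, the calprotectin chains that bring arachidonic acid to the oxidase, were 39.5-fold and 18.65-fold higher. Both were under the silent-gene limit in OC.2- cells, so the sizes rest on dim signal there. Arhgdib, which keeps Rac proteins inactive in the cytosol of blood cells, was 8.88-fold higher. The 3 that fell were Prdx6, a peroxiredoxin that can aid the oxidase, at 1.39-fold, protein kinase C alpha (Prkca) at 1.39-fold and the Rac exchange factor Vav2 at 1.35-fold. Vav2 lay under the silent-gene limit on all fetal arrays and Prkca on all OC.2+ arrays. Cybc1, a chaperone of the cytochrome b558 chains, differed by -0.06 ± 0.09 (SE) in log2 between the fetal groups, limma adjusted p = 0.678. Its intensity was 170.5 to 174.1 in OC.2+, 170.0 to 198.3 in OC.2- and 127.8 to 153.5 in adult cells.

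In OC.2- cells against adult hepatocytes 14 of the 30 assembly genes rose and 5 fell, with a median of 0.24, beside 23.7% of all genes called higher and 20.9% lower. These shares, and 20.3% higher and 18.2% lower between the fetal groups, are the background of the list counts in these comparisons. Arhgdib was 4.16-fold higher, the integrin activator Fermt3 2.18-fold and Arhgap25, which shuts Rac off in phagocytes, 2.02-fold. The Src kinase Fgr was 1.94-fold, the Rac effector Pak1 1.58-fold and the exchange factor Dock2 1.33-fold lower. Fgr, Pak1 and Dock2 lay under the silent-gene limit on all arrays of both groups, and Arhgdib, Fermt3 and Arhgap25 on all adult arrays. After median centring the counts were 9 higher and 8 lower, so the balance of this list depended on the scaling. Cybc1 was 1.25-fold higher (limma adjusted p = 0.0145), a call that ended after median centring (0.144), without adult replicate 3 (0.064) and without OC.2- replicate 1 (0.0699). In OC.2+ cells against adult hepatocytes 24 of the 30 rose and 2 fell (median 1.04, beside 32.0% and 23.4% of all genes), with Arhgdib 36.9-fold higher. Cybc1 was 1.19-fold higher there (limma adjusted p = 0.0352), a call that ended after median centring (0.35), after cyclic loess (0.239), without adult replicate 3 (0.15) and without any 1 of the OC.2+ replicates (0.0714 to 0.0873).

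Transcription factors of phagocyte genes moved both ways in OC.2+ relative to OC.2- cells: 7 of the 14 measured rose and 5 fell, median 0.16. Ikzf1, a lymphoid and myeloid regulator, was 5.29-fold higher, Runx1, needed for blood stem cells, 3.57-fold and Spi1, which encodes PU.1, 2.81-fold. The interferon-induced Irf1 was 3.92-fold, the immediate early gene Egr1 3.15-fold and Cebpa, a factor of both granulocytes and hepatocytes, 2.58-fold lower. Ikzf1, Runx1 and Spi1 lay under the silent-gene limit on all OC.2- arrays, and Irf1 and Cebpa on all OC.2+ arrays, so their folds rest on dim signal there. Spi1 differed by 0.27 ± 0.15 (SE) in log2 between OC.2- and adult cells (limma adjusted p = 0.158), and passed without OC.2- replicate 2 (0.0169). In that comparison 8 of the 14 rose (5 after median centring, 6 after quantile normalization or cyclic loess) and 2 fell, with Cebpb 2.35-fold and Cebpa 2.19-fold lower.

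Receptors that trigger the oxidase rose in 15 of the 24 measured cases and fell in 1 in OC.2+ relative to OC.2- cells, median 0.55. Clec7a, the fungal glucan receptor dectin-1, was 24.3-fold higher, the neutrophil chemokine receptor Cxcr2 4.17-fold and the integrin chain Itgb2 3.76-fold. The inhibitory Fc receptor Fcgr2b, also a marker of sinusoidal endothelium, was 3.76-fold lower. Cxcr2 lay under the silent-gene limit on all arrays of every group, Clec7a and Itgb2 on all OC.2- arrays and Fcgr2b on all OC.2+ arrays. These sizes therefore rest on dim signal. In OC.2- cells against adult hepatocytes 16 of the 24 rose and 1 fell, median 0.40. The signalling adaptors Fcer1g and Tyrobp were 3.88-fold and 3.01-fold higher, the macrophage growth factor receptor Csf1r 2.30-fold higher and the endotoxin co-receptor Cd14 4.20-fold lower. Tyrobp and Csf1r lay under the silent-gene limit on all adult arrays and Cd14 on all OC.2- arrays.

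Enzymes that remove superoxide and peroxide did not move as one group. Between the fetal groups, 9 of the 23 rose and 10 fell in OC.2+ cells, with a median of 0.03. The red-cell peroxiredoxin Prdx2 was 2.88-fold and glutathione peroxidase Gpx1 2.08-fold higher. Catalase (Cat) was 2.03-fold, the extracellular dismutase Sod3 1.91-fold and the mitochondrial dismutase Sod2 1.65-fold lower. Sod3 lay under the silent-gene limit on all fetal arrays. In OC.2- cells against adult hepatocytes 5 rose and 16 fell (median -0.33, beside 0.07 over all genes), with Prdx5 4.04-fold, the glutathione synthesis subunit Gclm 3.99-fold and Cat 2.64-fold lower, and Hmox1, which breaks down haem, 3.27-fold higher.

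**Figure D4:**
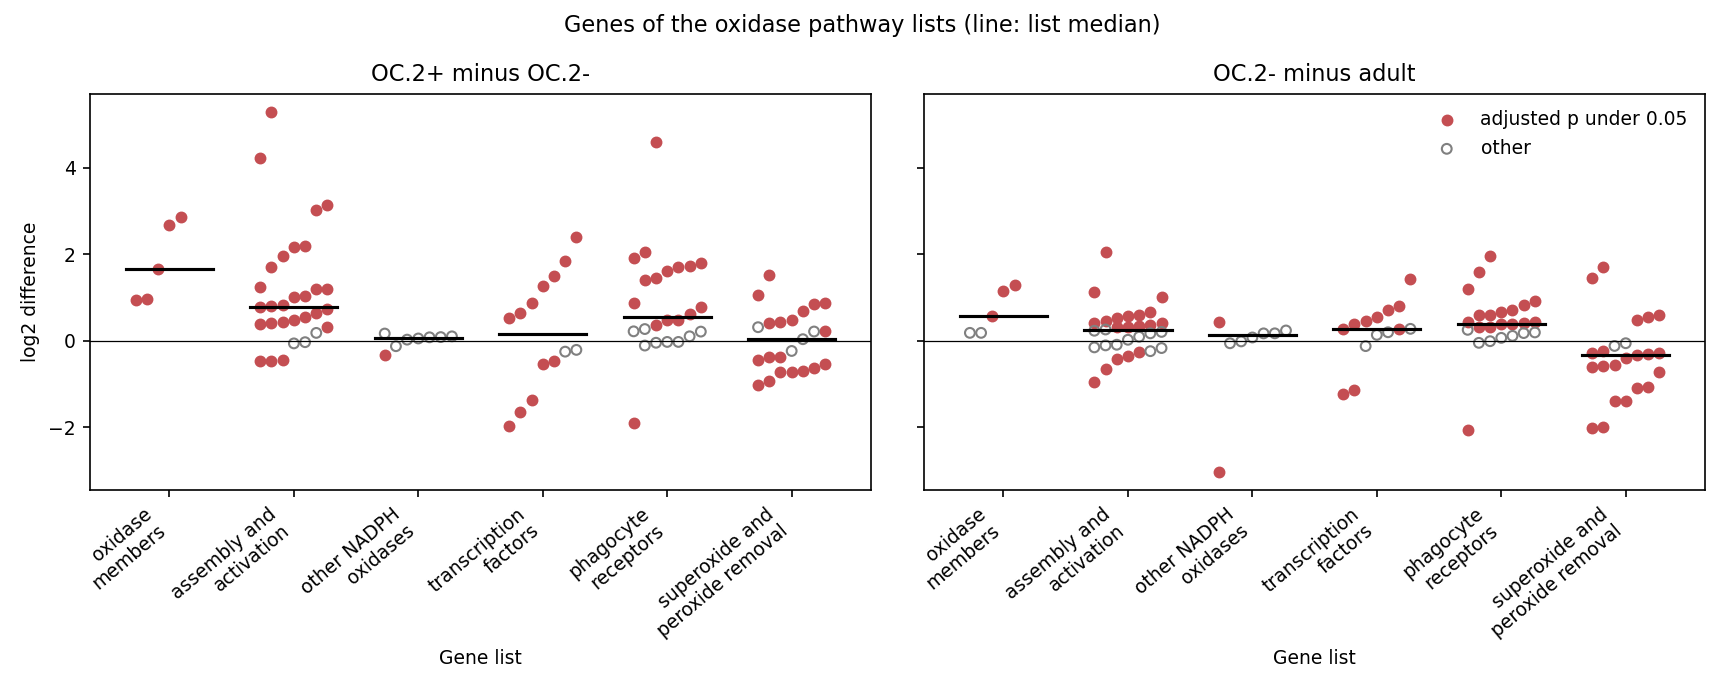
Log2 difference of each gene (point) in 6 gene lists of the oxidase and its surroundings, for OC.2+ minus OC.2- cells (left) and OC.2- cells minus adult hepatocytes (right). Filled points had a limma adjusted p under 0.05 and lines are list medians. The oxidase members lie above 0 on the left, and Nox4 is the lowest point among the other NADPH oxidases on the right.

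Neutrophil markers moved with the oxidase genes between the fetal groups and macrophage markers did not. Megakaryocyte markers and, apart from 1, erythroid markers, described below, rose with the oxidase genes as well. In a bulk sample fewer cells of a type and less RNA per cell cannot be told apart. Of 19 measured neutrophil granule markers 17 rose and 0 fell in OC.2+ relative to OC.2- cells, median 3.97. Their summed intensity was 32589 to 37439 on OC.2+, 1439 to 1556 on OC.2- and 1376 to 1399 on adult arrays. On the OC.2- arrays 18 of the 19 lay under the silent-gene limit, among them Ngp, Mpo, Elane and Camp, while Cybb, Cyba and Rac2 lay above it.

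Of 18 measured Kupffer cell and macrophage markers 1 rose and 8 fell in OC.2+ relative to OC.2- cells, median -0.24, against the direction of the oxidase genes. In OC.2- cells against adult hepatocytes 13 rose and 3 fell, median 0.82, the direction of Cybb, Cyba and Rac2. This direction was not particular to macrophage markers. Erythroid, megakaryocyte, sinusoidal endothelial and stellate markers, described below, rose there as well. Of 19 neutrophil markers 9 rose and 1 fell (median 0.23). Of 13 eosinophil, basophil and mast cell markers 9 rose and 0 fell (0.35). After median centring 5 rose in each of both lists. The summed intensity of the macrophage markers was 4764 to 5923 on OC.2-, 3546 to 4286 on OC.2+ and 2949 to 3164 on adult arrays. C1qb, a complement chain of macrophages, was 3.16-fold higher in OC.2- than in adult cells. The 3 that fell there were Cd14 at 4.20-fold, the complement receptor Vsig4 at 2.24-fold and Cd5l at 1.56-fold. Clec4f, Marco, Cd5l, Adgre1, Aif1 and Mertk lay under the silent-gene limit on all arrays of all 3 groups. On all OC.2- arrays 8 of the 18 markers lay under it, on all OC.2+ arrays 9 and on all adult arrays 12. Others were brighter in the fetal groups, such as Cd68 (mean log2 8.36 in OC.2- and 8.34 in OC.2+ cells) and Csf1r (8.20 and 8.08). Monocyte and dendritic cell markers rose in 5 of the 11 measured cases between the fetal groups and fell in 0. The chemokine receptor Ccr2 was 11.6-fold and the monocyte antigen Ly6c 8.63-fold higher in OC.2+ cells, from signal under the silent-gene limit in OC.2- cells. The marker lists share genes with each other and with the pathway lists. S100a8 and S100a9 are in both the neutrophil and the assembly lists, Cebpe and Irf8 also among the transcription factors and Hmox1 also among the peroxide removal enzymes. The part of any cell type in the oxidase differences was not tested.

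Other cell types were described by their lists in the same way. Between the fetal groups, 7 of 13 measured eosinophil, basophil and mast cell markers rose and 3 fell in OC.2+ cells, with a median of 0.28. The eosinophil proteins Prg2 and Epx were 54.2-fold and 23.3-fold higher, from signal under the silent-gene limit in OC.2- cells. The 3 that fell were Hdc, the histamine-forming enzyme, at 5.69-fold, and the mast cell proteases Cpa3 at 1.66-fold and Tpsab1 at 1.44-fold. Erythroid markers rose in 11 of 12 cases and fell in 1 (median 1.72), and megakaryocyte markers rose in 6 of 6 (median 1.39). Lymphocyte markers rose in 4 of 14 and fell in 0, with a median of 0.08 beside 0.04 over all genes. Sinusoidal endothelial markers fell in 9 of 9, stellate and mesenchymal markers in 11 of 12 and hepatocyte markers in 10 of 12. Of 8 ductal markers 1 rose and 2 fell. In OC.2- cells against adult hepatocytes erythroid markers rose in 12 of 12 cases (median 2.66) and megakaryocyte markers in 5 of 6 (0.55). There sinusoidal endothelial markers rose in 8 of 9 cases (1.70), and stellate and mesenchymal markers rose in 10 of 12 and fell in 1 (0.95). Hepatocyte markers rose in 2 of 12 and fell in 6 (-0.34), or in 9 after median centring.

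**Figure D5:**
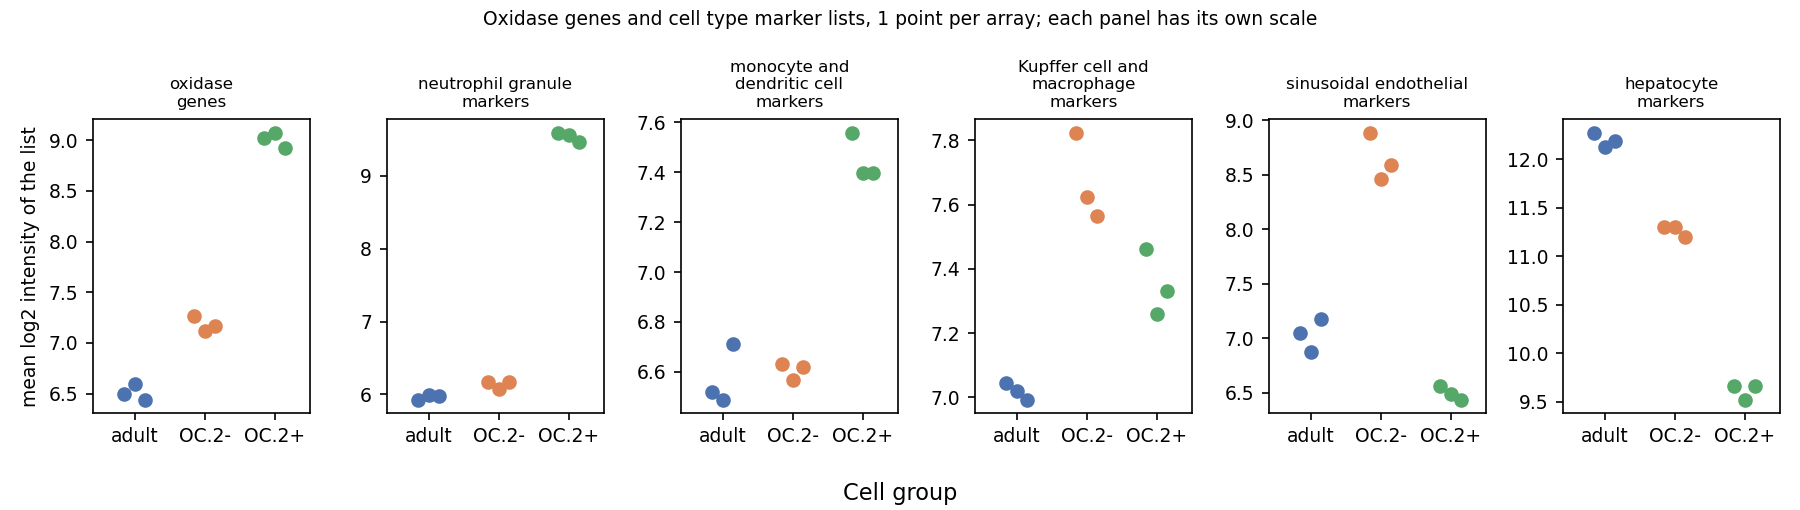
Mean log2 intensity of the 5 oxidase genes and of 5 cell type marker lists (vertical axes, each with its own scale) on each array, by cell group. The oxidase genes and the neutrophil and monocyte lists are highest on the OC.2+ arrays, the macrophage and endothelial lists on the OC.2- arrays and the hepatocyte list on the adult arrays. The erythroid and megakaryocyte lists, not drawn, are also highest on the OC.2+ arrays.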

How the data were processed

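RNA of 9 preparations (3 groups of 3, grouped by sample title) was measured on 1 array each, from 150 ng of total RNA per the labels' protocols. The deposited intensity values, 1 column per array and linear in scale, were used as the authors made them; Partek 6.6 and RMA are listed per the submitters' processing notes, without their roles. A normalization between arrays, if run, would remove shifts shared by most genes. The genome build was not given in the sources used here.

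Of 28826 rows, 15209 had 1 symbol in the platform annotation, 306 several and 13311 none. Of the single symbols 15178 matched a current gene table (GRCr8, names and gene order only). The row of highest mean was kept per gene, leaving 14497, with no filter. Log2 values were fitted in limma 3.58.1 (R 4.3.3; lmFit, eBayes) as 3 group means over all 9 arrays (6 residual degrees of freedom), 2-sided, adjusted over all genes by Benjamini and Hochberg's method, and called under 0.05. The number of arrays limits the precision; the median SE of a log2 difference was 0.095. The fit was tested on simulated data. Members and gene lists were chosen with earlier results of these data known. Lists are described by counts and medians, with no list test. Named genes were the members, Rac1, Cybc1, the other NADPH oxidase genes, the 3 nearest profiles per member, and up to 3 called genes each way per pathway list (2 per marker list), of which not all are printed. Alternatives covered scaling, dim genes, rows per gene, variance, groups fitted, a replicate block, a threshold of 0.01 and leaving out each array.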

Additional observations from a re-analysis of the deposited data

How the results depend on the processing

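Over 18 alternatives (17 for Ncf1 and Ncf4, which the filter on genes above the median level removed), the log2 differences of the 5 oxidase genes kept their direction in all 3 comparisons. Their calls changed once: Ncf4 in OC.2- cells against adult hepatocytes passed without adult replicate 2, and leaving out each array gave 0.081 to 0.285. Between the fetal groups the values ran from 2.60 to 2.81 for Cybb, 0.86 to 1.02 for Cyba, 1.58 to 1.76 for Ncf1, 0.89 to 1.00 for Ncf4 and 2.78 to 2.95 for Rac2. Genes called higher numbered 3431 in OC.2- cells against adult hepatocytes, 2139 after median centring and 2043 among genes above the median level, where fewer genes were tested. In OC.2+ cells against adult hepatocytes they numbered 4643, 3024 after median centring, 3066 after cyclic loess and 2664 among genes above the median level. Median centring moved the median of all genes from 0.07 to -0.06 and from 0.11 to -0.03 in these comparisons. With the replicate number as a block, OC.2+ cells had 2843 genes above and 2573 below OC.2- cells, beside 2944 and 2632 without it, and no oxidase call changed. Deviations of same-numbered arrays correlated at -0.226 to 0.106 over 9 pairs, and 1 of 9 arrays correlated best with its own number. Between same-numbered fetal arrays r was 0.047, -0.153 and -0.160. Deviations from a mean of 3 arrays depend on each other, so these few values cannot tell whether same-numbered fetal arrays shared animals. With 3 arrays a group and no detection call, values under the silent-gene limit (Ncf4 in all groups) cannot show whether the gene was expressed.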

Other observations

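Ncf4 and Rac2 lie near each other on one rat chromosome in the GRCr8 gene order, and the genes between them were read after their values had been seen. Of 14 genes between, 9 are protein coding and all 9 were measured. Between the fetal groups, 1 of the 9 rose and 2 fell in OC.2+ cells (limma adjusted p under 0.05), beside 20.3% and 18.2% of all genes. With 9 genes these counts cannot be told from those shares. Csf2rb, the shared beta chain of the receptors for GM-CSF and related cytokines and the neighbour of Ncf4, rose by 0.37 ± 0.09 (SE) in log2 (limma adjusted p = 0.00414). Tst, a mitochondrial sulfurtransferase of liver, fell by 2.73 ± 0.10 (2.68e-10), and Tmprss6, the hepatocyte protease that restrains hepcidin, fell by 2.00 ± 0.11 (7.65e-09). On the outer side of Rac2, Cyth4, an exchange factor of blood cells, rose by 0.72 ± 0.11 (0.000134). On the outer side of Ncf4, Pvalb (parvalbumin) differed by 0.01 ± 0.07 (0.961). The 2 oxidase genes, which differed by 0.94 ± 0.10 and 2.86 ± 0.10, were thus separated by genes that moved the other way or missed the threshold, apart from Csf2rb.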
